A study of Mus musculus with 16 samples.

Results

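The 38 genes described here encode pore-forming and accessory subunits of voltage-gated and potassium channels, and H3K4me3, a histone mark of active promoters, was followed at every region of theirs in the mouse hippocampus. Regions were taken when they lay inside one of these genes or within 2 kb of either end on mm10, whatever their values. This gave 126 of 35996 H3K4me3 regions, with every gene holding at least 1. The region with the most counts over all libraries was treated as the main promoter region of its gene (38 regions). Of the remaining 88, 71 lay inside a gene over 2 kb from both ends (called internal) and 17 at a gene end. Of the 38 main regions 28 lay at a gene end. The other 10 lay over 2 kb from both ends and are counted as main, not as internal. Regions of a gene are numbered by their counts, so region 1 is the main region.

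H3K4me3 was measured by chromatin immunoprecipitation and sequencing in 6 groups of 2 libraries, each library a pool of 2 adult males aged 2 to 4 months. Kdm5c KO mice and wild-type (WT) littermates on a mixed F1 background of C57 and 129 were taken under standard conditions or after novelty, 1 h alone in a box with tubing and small toys. Mice that the labels call Kdm5c ifKO, and their littermate controls (ifWT here), were pure C57BL/6J and were taken in the basal state. A title of 1 ifWT library names H3K3me3, but the antibody listed for it is the H3K4me3 one. How the KO and ifKO lines were made, and in which cells the ifKO line lacks Kdm5c, the sources used here do not give. Kdm5C removes methyl groups from H3K4, and the comparisons ask where H3K4me3 differs without it.

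Voltage-gated sodium channels open on depolarization and carry the rising phase of the action potential, voltage-gated calcium channels couple depolarization to transmitter release and to calcium signals, and potassium channels repolarize the membrane and set its resting level. HCN channels open on hyperpolarization and carry a pacemaker current. H3K4me3 sits in peaks around active transcription start sites, and genes with several alternative starts can carry several peaks.

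Total counts over the regions were 18181192 to 30435735 per library. Main channel regions held 352 to 6832 counts in a library, whereas internal ones held a median of 33 and as few as 1, so the smallest changes could be seen only at the former. Counts are given as CPM, counts scaled to a common library size with TMM factors, and all 126 regions passed the filter on low counts. The main region held a median of 91.0% of its gene's H3K4me3 counts. The lowest share was 36.8%. Markers of hippocampal excitatory neurons had a region at 8 of 8 genes, and their summed level was 687 to 891 CPM per library. Of 4 Hox genes that are off in the forebrain 1 had a region, at 0.313 to 1.23 CPM. The libraries of a group differed by more than counting error, with a chi-square per degree of freedom of 2.33 to 2.91 in the KO cohort, 4.52 in ifWT and 7.66 in ifKO. The sources do not say whether the pools of a group were prepared independently, so the tests measure the spread between these pools.

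Start windows in the RefSeq table of GRCm38.p6 matched 28 of the 38 genes with 42 windows, each from 250 bases before to 50 after an annotated start. Of these windows 37 lay in an H3K4me3 region of their gene, and 23 main regions held a start of their own gene. The median window held 14.5 CpG dinucleotides, against 7 over all 32851 windows of the table. The GC box GGGCGG was found on either strand in 40.5% of channel windows and in 35.7% of all windows. The TATA box TATAAA was found in 7.14% and 13.6% of them, on either strand, and the palindrome CACGTG in 0 of the 42 channel windows and in 7.15% of all. The half-site TGACG was in 16.7% and 20.8%, and CAGCACC in 7.14% of both, on either strand. No motif searched contains another.

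The 5 annotated starts shown here lie in the regions that the comparisons below turn on. Their 250 bases before the start are shown 5′ to 3′ on the strand of the gene, with every CpG in capitals, because the starts differ in base composition and in how H3K4me3 differed there.
Scn8a start, chr15:100870395-100870644, plus strand: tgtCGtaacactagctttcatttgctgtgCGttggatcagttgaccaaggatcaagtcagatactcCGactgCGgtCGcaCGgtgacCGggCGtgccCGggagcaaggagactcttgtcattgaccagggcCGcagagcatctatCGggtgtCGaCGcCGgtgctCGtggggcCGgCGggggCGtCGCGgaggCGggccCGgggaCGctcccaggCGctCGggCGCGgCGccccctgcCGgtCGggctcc
Scn2a first start, chr2:65620519-65620768, plus strand: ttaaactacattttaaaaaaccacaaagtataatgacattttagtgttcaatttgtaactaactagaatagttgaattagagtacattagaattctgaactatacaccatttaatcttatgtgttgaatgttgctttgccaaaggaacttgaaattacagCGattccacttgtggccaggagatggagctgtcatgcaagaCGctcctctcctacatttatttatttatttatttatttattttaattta
Scn2a second start, chr2:65668436-65668685, plus strand: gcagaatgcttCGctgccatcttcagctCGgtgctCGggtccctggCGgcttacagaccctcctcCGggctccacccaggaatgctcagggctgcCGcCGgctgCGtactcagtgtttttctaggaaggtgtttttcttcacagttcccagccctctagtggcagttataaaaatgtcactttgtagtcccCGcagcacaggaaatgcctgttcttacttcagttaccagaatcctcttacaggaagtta
Kcnk2 distal start, chr1:189402274-189402523, minus strand: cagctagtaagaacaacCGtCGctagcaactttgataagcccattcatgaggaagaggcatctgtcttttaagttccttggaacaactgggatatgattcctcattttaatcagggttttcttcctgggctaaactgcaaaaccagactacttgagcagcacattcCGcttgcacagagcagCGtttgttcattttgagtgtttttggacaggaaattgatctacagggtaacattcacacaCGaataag
Kcnk2 proximal start, chr1:189343708-189343957, minus strand: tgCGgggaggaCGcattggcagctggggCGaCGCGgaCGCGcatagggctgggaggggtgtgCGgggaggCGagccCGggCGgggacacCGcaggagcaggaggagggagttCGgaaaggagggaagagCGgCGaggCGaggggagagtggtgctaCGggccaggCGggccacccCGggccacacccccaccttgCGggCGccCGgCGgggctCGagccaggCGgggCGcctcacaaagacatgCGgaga
The Scn8a sequence holds 30 CpGs and the Kcnk2 proximal one 27. The Kcnk2 distal sequence holds 5, and the Scn2a sequences hold 2 at the first start and 9 at the second. The printed part of the second Scn2a start also holds 1 match to TATAAA, and the Kcnk2 proximal start holds 1 GC box. Kcnk2 region 1 holds further annotated starts that are not printed. Their 300-base windows hold 3 and 33 CpGs, and the distal window holds 6, so the contrast in CpGs depends on which proximal start is shown.

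At the main promoter regions all 38 genes carried the mark in every library. Per kb of region, the WT level under standard conditions ran from 52.3 ± 0.735 CPM at Kcnn2, a small-conductance calcium-activated channel, down to 15.6 ± 0.796 CPM at Scn4b, a sodium channel beta subunit (SD, n = 2), a 3.36-fold range. After Kcnn2 came Cacna1d (49.6 CPM per kb), Kcna2 (47.2), Kcnma1 (46.5) and Kcnd2 (42.8). The lowest levels were those of Cacna1i (21.0 CPM per kb), Hcn4 (19.3), Kcnn1 (18.9) and Scn4b. Only 7 of the 37 gaps between neighbours in this order exceeded the spread of the neighbouring genes, so the order within the middle of the list is not resolved. The main region of Cacna1d, an L-type calcium channel, contained no annotated start of Cacna1d but lay at an end of the mRNA decapping gene Dcp1a, and its level cannot be assigned to the channel. The main regions of Hcn4 and Kcnn1 also lay at an end of another protein-coding gene (Rec114 and Ccdc124).

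By class, the median main level per kb in WT was 40.5 CPM in the 3 inward rectifiers, 35.4 in the 4 calcium-activated channels, 32.9 in the 13 voltage-gated potassium channels, 31.0 in the 8 calcium channel genes, 30.8 in the 4 sodium channel alpha subunits and 29.3 in the 3 beta subunits. The levels within a class were spread as widely as between classes. Calcium-activated channels ran from 18.9 to 52.3 CPM per kb, and calcium channels from 21.0 to 49.6. The pacemaker channels Hcn2 (37.3 CPM per kb) and Hcn4 (19.3) stood at different levels in the same libraries. The values of Kcnn1 (18.9), Cacna1d (49.6) and Hcn4 come from the regions named above at an end of another protein-coding gene.

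**Figure D1:**
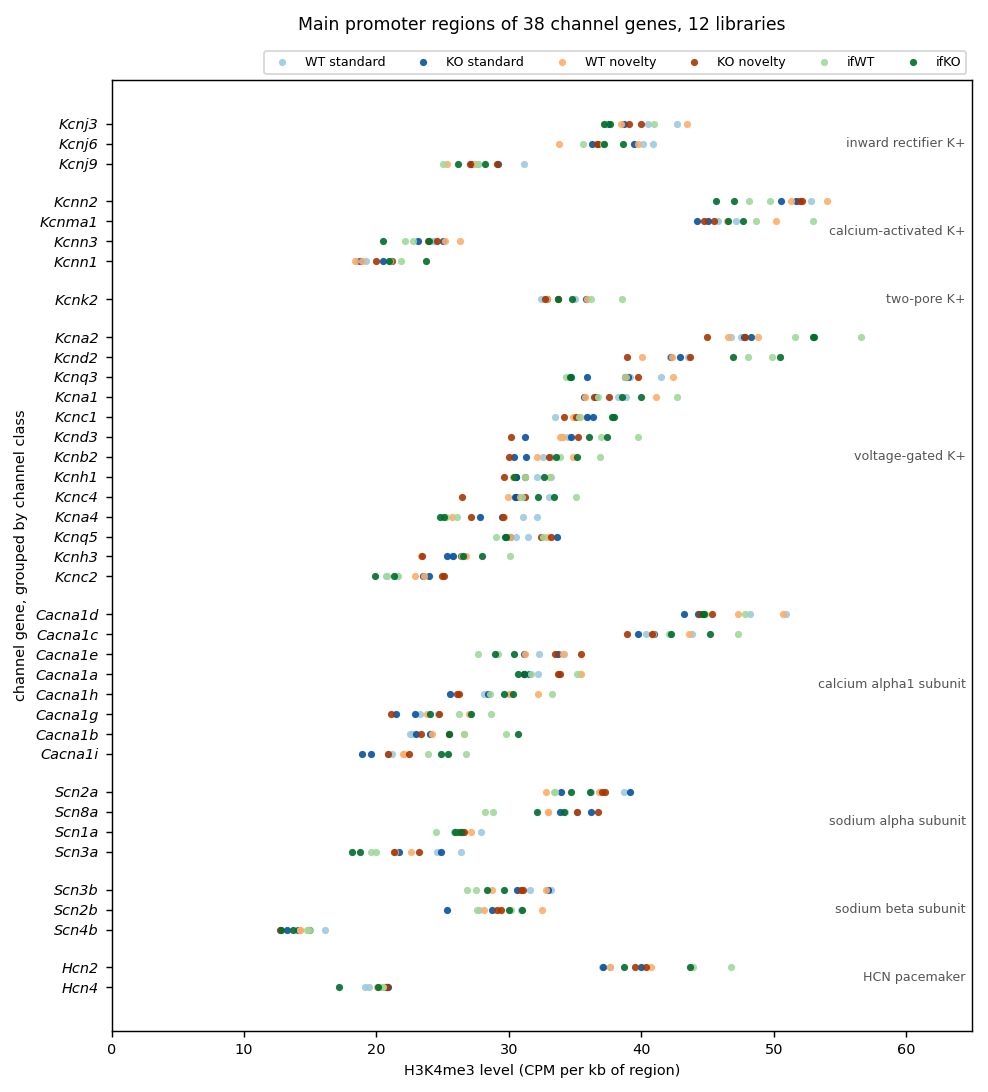
H3K4me3 level (CPM per kb of region, linear axis from 0) at the main promoter region of each of the 38 channel genes, with 1 point per library coloured by group. The spread between genes, from 15.6 to 52.3 CPM per kb in WT under standard conditions, is wider than that between the groups at almost any gene.

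The first comparison asked where the loss of Kdm5c went with a different H3K4me3 level at these genes in mice kept under standard conditions. Of 126 channel regions 7 were past the threshold, an edgeR quasi-likelihood adjusted p under 0.05 over all 35955 regions tested, 4 higher and 3 lower in KO (5.56%). Over all regions 13.4% passed. At the main promoter regions 0 of 38 were higher and 1 lower, where 5.51% and 8.15% of the main regions of all protein-coding genes were. At the other regions 4 of 88 were higher and 2 lower, where 11.7% and 0.978% of such regions of all genes were. The median log2 change was -0.06 at the main regions and 0.18 at the others. With scaling offsets that follow region strength (strength-fitted offsets) these medians were 0.02 and 0.04, so the sign at the main regions depends on the scaling, and 2 main regions were then higher and 0 lower. With library totals in place of TMM the channel calls split into 5 higher and 1 lower, and over all regions the share of calls that were higher was 89.8% rather than 72.6%.

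After novelty, 9 channel regions were higher and 2 lower in KO than in WT (8.73%), where 17.0% of all regions passed. Main regions gave 0 higher and 1 lower, beside 5.84% and 13.3% of the main regions of all genes, and other regions 9 higher and 1 lower, beside 13.8% and 1.82%. Averaged over both conditions, 21 regions were higher and 5 lower (20.6%), where 32.1% of all regions passed. Of these 26, 12 passed only in the average. The main regions gave 1 higher and 2 lower there, beside 9.56% and 30.4% of the main regions of all genes, and the others 20 higher and 3 lower, beside 23.0% and 4.63%. With strength-fitted offsets this average split differently. The main regions then gave 6 higher and 1 lower with a median log2 change of 0.03 in place of -0.05, and the other regions 9 higher and 3 lower with a median of 0.04 in place of 0.20. In ifKO against ifWT 3 regions were higher and 0 lower (2.38%), where 5.38% of all regions passed. Of these 1 was a main region, beside 2.56% of all main regions that were higher and 2.22% that were lower, and 2 were other regions, beside 5.46% and 0.264%.

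No main promoter region differed widely in any of these comparisons. The 95% interval of the log2 change lay within ± 0.5 at 38 of 38 main regions in each comparison made. The widest bounds were -0.38 and 0.29 in KO under standard conditions, -0.38 and 0.31 after novelty and -0.36 and 0.35 in ifKO. Scn1a, the sodium channel of interneuron excitability, had log2 changes of -0.03 ± 0.06, -0.03 ± 0.06 and 0.05 ± 0.06 (SE) in these 3 comparisons. Its main region lay away from both gene ends, and the annotated start of Scn1a lay in region 2. Kcnma1, the large-conductance calcium-activated channel, had -0.06 ± 0.05, -0.10 ± 0.05 and -0.11 ± 0.05. In KO averaged over both conditions edgeR with TMM scaling did not call the main region of Kcnma1. DESeq2 (-0.10, adjusted p 0.049) and limma-voom (-0.08, adjusted p 0.048) called it lower there. Kcnd2, an A-type channel of dendrites, had -0.01 ± 0.06, 0.01 ± 0.06 and -0.01 ± 0.06.

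**Figure D2:**
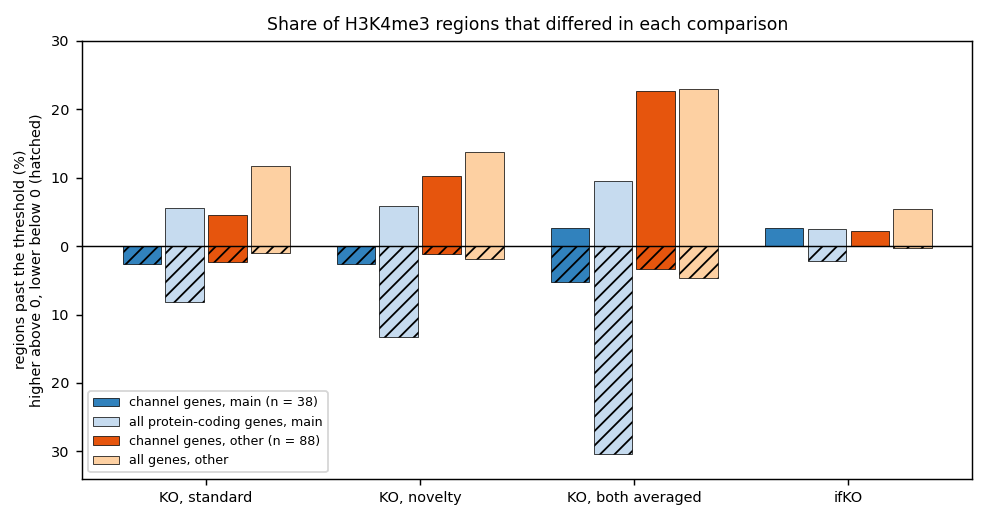
Percent of H3K4me3 regions past the adjusted p threshold in each comparison, higher in the mutant above 0 and lower (hatched) below 0, for channel genes beside all genes, with TMM scaling. In KO averaged over both conditions 1 of 38 main channel regions was higher and 2 lower, beside 9.56% and 30.4% of the main regions of all protein-coding genes, a channel split that became 6 and 1 with strength-fitted offsets.

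Among the sodium channels, which start the action potential, regions that hold an annotated start of Scn8a and of Scn2a were higher in KO in both conditions. Scn8a, the main sodium channel of the axon initial segment, has 2 annotated starts. The upstream one, whose CpG-dense sequence is given above, lies in region 3 (chr15:100869954-100870762), the smallest by counts of 3 adjacent regions there. Region 3 had 18.9 and 19.3 CPM in WT and 27.2 and 25.2 in KO under standard conditions. After novelty it had 18.7 and 19.0 CPM in WT and 27.5 and 25.0 in KO, and in the other cohort 25.8 and 23.7 CPM in ifWT and 28.9 and 31.3 in ifKO. All 4 KO libraries were above all 4 WT libraries, and both ifKO libraries were above both ifWT ones. The log2 change was 0.46 ± 0.09 (SE, adjusted p 0.00062) under standard conditions and 0.48 ± 0.09 (adjusted p 0.00022) after novelty. In ifKO it was 0.28 ± 0.09 (adjusted p 0.066) and missed the threshold, and the difference between the KO and ifKO effects was 0.18 (95% interval -0.09 to 0.44).

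The Scn8a regions adjacent to region 3 were not called higher in KO with TMM scaling. Region 2 (chr15:100870916-100871724), just downstream of the upstream start, had a log2 change of -0.16 ± 0.05 (adjusted p 0.020) in KO averaged over both conditions. It passed in neither condition alone, and the call was lost without WT standard replicate 2, KO standard replicate 1, WT novelty replicate 2 or KO novelty replicate 2, with library totals and with strength-fitted offsets (adjusted p up to 0.087 for these scalings). The main region (chr15:100871788-100873506) had 58.8 and 60.3 CPM in WT and 62.3 and 58.2 in KO under standard conditions, which overlap, and a log2 change of 0.02 ± 0.06. After novelty edgeR called the main region higher in KO with library totals (0.17, adjusted p 0.045) and with strength-fitted offsets (0.18, adjusted p 0.027). The average over both conditions also passed with these scalings (0.11 and 0.13, adjusted p 0.039 and 0.021), so the contrast with region 3 depends in part on scaling. In ifKO, at 58.7 and 55.2 CPM against 49.5 and 48.4 in ifWT, the main region rose by 0.22 ± 0.06 (adjusted p 0.034). That call was lost without ifWT replicate 1, ifWT replicate 2 or ifKO replicate 1, with DESeq2 or limma-voom and with the compared groups alone, and the KO effect minus the ifKO effect there was -0.20 (adjusted p 0.48). Region 4, at the far end of the gene, was higher by 0.30 ± 0.09 in KO averaged over both conditions (adjusted p 0.010), a call lost without WT novelty replicate 2 or KO novelty replicate 1 and with strength-fitted offsets. The second annotated start lies in region 9, an internal region of 7 to 45 counts that passed in no comparison (0.65 ± 0.31 in the average, adjusted p 0.11). Region 8, also internal and with 14 to 64 counts, was higher by 0.84 ± 0.26 in the average (adjusted p 0.013), lost without WT standard replicate 2, KO standard replicate 1, WT novelty replicate 1 or KO novelty replicate 1, with DESeq2 and with strength-fitted offsets. Its KO and WT libraries overlapped.

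Scn2a, the sodium channel of young axons and of dendrites, has annotated starts 47.9 kb apart, and H3K4me3 differed at the second of them. Region 2 (chr2:65668115-65670632), which holds the second start, had 42.9 and 41.8 CPM in WT and 54.7 and 46.9 in KO under standard conditions, and 43.2 and 37.3 in WT and 52.0 and 48.7 in KO after novelty. The KO libraries were above the WT libraries in both conditions. The log2 change was 0.26 ± 0.08 (adjusted p 0.028) and 0.33 ± 0.08 (adjusted p 0.0037). Under standard conditions the call was lost without WT replicate 1, WT replicate 2 or KO replicate 1 (adjusted p up to 0.38) and with DESeq2, and after novelty without WT replicate 2 or KO replicate 1. The average over both conditions was 0.29 ± 0.06 and held without each library. In ifKO region 2 had 39.3 and 44.6 CPM against 35.0 and 39.4, which overlap, and a log2 change of 0.17 ± 0.09 (adjusted p 0.29). The main region, at the first start, had a log2 change of 0.03 ± 0.05 in KO averaged over both conditions. Scn3a and the beta subunits Scn2b, Scn3b and Scn4b had no region past the threshold in KO or ifKO.

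**Figure D3:**
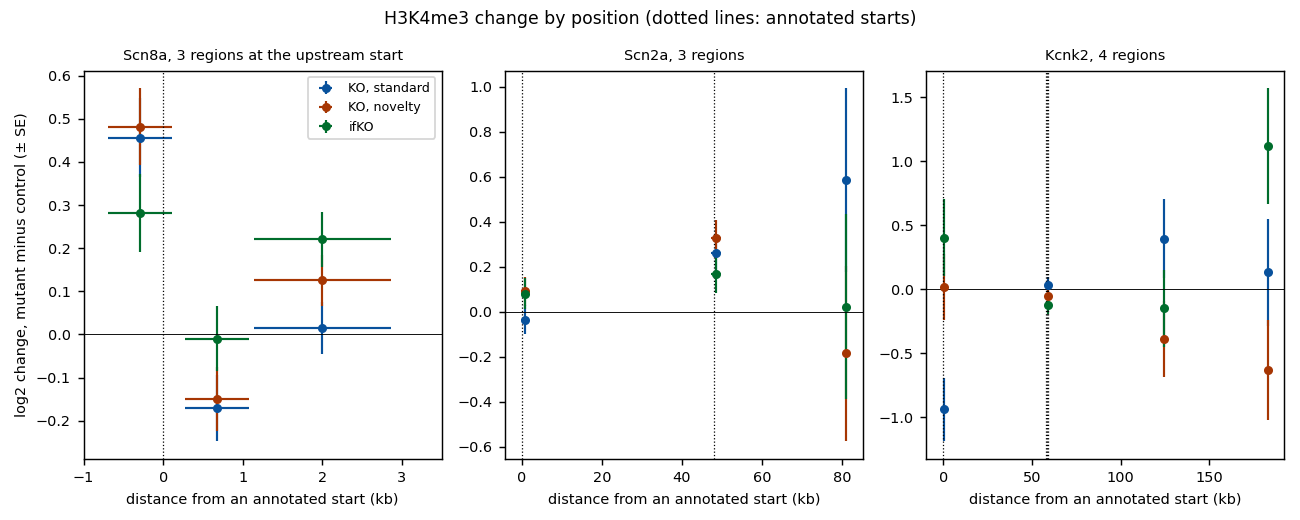
Log2 change in H3K4me3 (mutant minus control, bars are the SE) against distance from an annotated start in kb along the gene, for regions of Scn8a, Scn2a and Kcnk2, with horizontal bars for region widths and dotted lines for annotated starts. At Scn8a the region that holds the upstream start is raised in KO in both conditions, by 0.46 and 0.48. Its downstream neighbours are not called higher in KO with TMM scaling, but the main region is after novelty with library totals or strength-fitted offsets.

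Among the calcium channels, which admit calcium on depolarization, the change that held in every comparison of mutant and control was inside Cacna1c, the gene of the L-type channel Cav1.2. Cacna1c region 4 (chr6:118976414-118978527) is internal, with its centre 131024 bp from the nearest annotated start of its gene. It had 4.18 and 4.07 CPM in WT and 12.3 and 9.50 in KO under standard conditions. After novelty it had 4.98 and 4.24 CPM in WT and 9.03 and 8.34 in KO, and in the other cohort 3.92 and 3.71 CPM in ifWT and 11.3 and 10.3 in ifKO. Every KO and ifKO library was above every control library. The log2 change was 1.40 ± 0.16 (adjusted p 1.2e-07), 0.92 ± 0.16 (adjusted p 8.7e-05) and 1.51 ± 0.17 (adjusted p 1.6e-07), and it was past the threshold in all 3 comparisons, as no other channel region was. The KO effect minus the ifKO effect was -0.11 (95% interval -0.60 to 0.38). Per kb, its level in WT was 1.95 CPM, against 42.1 at the main region of Cacna1c, which had a log2 change of -0.07 ± 0.04 in KO averaged over both conditions.

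Other internal calcium channel regions were higher at low levels. Cacna1b region 2, inside the N-type channel gene of presynaptic terminals (chr2:24678945-24679794), had 1.12 and 0.894 CPM in WT and 2.18 and 1.91 in KO under standard conditions, and 1.22 and 0.848 in ifWT and 3.09 and 1.46 in ifKO. Those levels rest on 19 to 60 counts per library, and the groups did not overlap. The log2 change was 1.01 ± 0.33 (adjusted p 0.040) in KO, lost without any 1 of its 4 libraries, with DESeq2 or limma-voom and with strength-fitted offsets. In ifKO it was 1.15 ± 0.34 (adjusted p 0.042), lost without ifWT replicate 1, ifWT replicate 2 or ifKO replicate 1, with those tools and offsets and with the compared groups alone. Averaged over both conditions it was 0.90 ± 0.23 in KO (adjusted p 0.0037) and held without each library.

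Cacna1e region 4, inside the R-type channel gene (chr1:154843941-154844706), had 0.633 and 0.383 CPM in WT and 1.49 and 1.71 in KO after novelty, from 11 to 47 counts, a log2 change of 1.67 ± 0.41 (adjusted p 0.0042) that was lost without WT novelty replicate 2 (adjusted p 0.12). In the average it was 1.37 ± 0.29 and held without each library. Cacna1a, the P/Q-type channel, was higher after novelty at region 8 (1.31 ± 0.34, adjusted p 0.0070, 15 to 58 counts) and at region 4 (0.43 ± 0.14, adjusted p 0.035). The first of these calls was lost without WT novelty replicate 2 or KO novelty replicate 2, and the second without any 1 of its 4 libraries, with DESeq2 and with strength-fitted offsets. In the average these regions had 0.81 ± 0.23 and 0.33 ± 0.10, both lost without WT novelty replicate 2 and the second also with those offsets. Cacna1c region 9, with 10 and 2 counts in WT and 18 and 25 in KO after novelty, was higher by 1.72 ± 0.61 (adjusted p 0.048), a call that was lost without WT novelty replicate 2, KO novelty replicate 1 or KO novelty replicate 2, with library totals and with strength-fitted offsets. Cacna1a regions 3 (0.20 ± 0.07) and 5 (0.38 ± 0.14) and Cacna1c region 3 (0.23 ± 0.09) were higher in the average alone, and so in neither condition. Leaving out 6 of the 8 libraries in turn took each of these calls away, as did DESeq2 and the offsets and, at Cacna1c region 3, RLE scaling. The average at Cacna1c region 9 was lost without 4 of the 8 and with the same settings.

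The falls in the calcium channel group lay at other positions. Cacna1c region 2 (chr6:119174838-119176233) is inside Cacna1c but at an end of Dcp1b, a decapping gene. It had 63.6 and 59.0 CPM in WT and 56.3 and 51.6 in KO under standard conditions, and 60.8 and 65.4 in WT and 52.6 and 55.2 in KO after novelty. The KO libraries were below the WT libraries in both conditions, with log2 changes of -0.19 ± 0.06 (adjusted p 0.046) and -0.23 ± 0.06 (adjusted p 0.0091). The first call was lost without WT replicate 1, WT replicate 2 or KO replicate 2, with limma-voom, with library totals and with strength-fitted offsets. The second was lost without WT replicate 2 or KO replicate 1. Averaged over both conditions the change of -0.21 ± 0.04 held without each library. In ifKO it was -0.05 ± 0.06.

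The region at the Dcp1a end inside Cacna1d (chr14:30479038-30480710) was the only main region called under standard conditions with TMM scaling. It had 85.1 and 80.7 CPM in WT and 74.1 and 72.3 in KO, a log2 change of -0.18 ± 0.06 (adjusted p 0.031) that was lost without any 1 of the 4 libraries, with library totals and with strength-fitted offsets (adjusted p up to 0.16 for these scalings). Averaged over both conditions it was -0.15 ± 0.04 (adjusted p 0.0033), which held without each library but missed the threshold (adjusted p 0.081) with the same offsets. Without the regions at an end of another protein-coding gene, an alternative chosen after seeing the data, 35 main regions remained, of which 3 had an unadjusted p under 0.05 under standard conditions and none was called by edgeR.

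Cacna1h, a T-type channel that opens near the resting potential, had the only main region called after novelty with TMM scaling (chr17:25431288-25433794). It had 75.3 and 80.6 CPM in WT and 65.5 and 65.7 in KO, a log2 change of -0.25 ± 0.06 (adjusted p 0.0065) that was lost without WT novelty replicate 2 or KO novelty replicate 1. Under standard conditions the groups overlapped, and the log2 change was -0.11 ± 0.07 (adjusted p 0.31). The average, -0.18, held in every alternative run (adjusted p up to 0.04998). The next region of Cacna1h (region 2, chr17:25433878-25434655) went the other way, by 0.24 ± 0.08 (adjusted p 0.021) averaged over both conditions, lost without WT standard replicate 2, KO standard replicate 2, WT novelty replicate 2 or KO novelty replicate 1, with DESeq2 and with strength-fitted offsets. The other T-type genes, Cacna1g and Cacna1i, had no region past the threshold in KO or ifKO in the edgeR fit of all 12 libraries with TMM scaling. The main region of Cacna1g was called lower by edgeR in the average with RLE scaling (-0.15, adjusted p 0.035). It was also lower there with the compared groups alone (-0.13, adjusted p 0.045).

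The voltage-gated potassium channels, which repolarize the membrane, gave few calls. At their 13 main regions Kcnc2, a fast-delayed rectifier of fast-spiking cells, was the only one called by edgeR with TMM scaling over all libraries. It had 48.4 and 46.5 CPM in WT and 53.8 and 52.8 in KO under standard conditions, and 51.4 and 53.1 in WT and 56.3 and 56.1 in KO after novelty. KO was above WT in each condition, but the 4 KO and 4 WT libraries together overlapped. The log2 change averaged over both conditions was 0.14 ± 0.04 (adjusted p 0.016). It was lost without WT standard replicate 2, WT novelty replicate 1 or KO novelty replicate 1 and with DESeq2, and neither condition passed alone with TMM scaling. Standard conditions alone passed by edgeR with library totals (0.21, adjusted p 0.020) and with strength-fitted offsets (0.21, adjusted p 0.020). With those offsets edgeR also called the main region of Kcnc1 higher under standard conditions (0.14, adjusted p 0.042) and in the average (0.10, adjusted p 0.016). The main region of Kcnq5 was likewise higher in the average (0.12, adjusted p 0.022).

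The 27 other regions of these 13 genes gave 1 call after novelty and 2 in the average. Kcna2, a delayed rectifier of axons, was higher at region 2 near the far end of the gene (chr3:107113206-107114804). It had 4.67 and 4.02 CPM in WT and 6.36 and 5.91 in KO under standard conditions, and 4.81 and 3.48 in WT and 7.31 and 5.66 in KO after novelty. All 4 KO libraries were above all 4 WT libraries. The log2 change was 0.50 ± 0.19 (adjusted p 0.087) and 0.66 ± 0.19 (adjusted p 0.014), and the second was lost without WT novelty replicate 2 or KO novelty replicate 1 and with strength-fitted offsets. The average of both was 0.58 ± 0.14 and held without each library. Kcnd3, an A-type channel, had 0.16 ± 0.06 (adjusted p 0.048) in the average at region 2, which holds its annotated start and an end of the antisense gene Kcnd3os. Leaving out 7 of the 8 libraries in turn took that call away, as did RLE scaling, DESeq2 and strength-fitted offsets. The mark there cannot be assigned to Kcnd3 or to Kcnd3os.

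Among the calcium-activated potassium channels, which follow action potentials with a hyperpolarization, the edgeR calls with TMM scaling lay outside the 4 main regions. Kcnn2 region 2, at an end of the gene, had 25.3 and 25.5 CPM in WT and 33.9 and 28.3 in KO after novelty, a log2 change of 0.30 ± 0.09 (adjusted p 0.019) that was lost without WT novelty replicate 1, WT novelty replicate 2 or KO novelty replicate 1 and with DESeq2. Averaged over both conditions it was 0.24 ± 0.06 (adjusted p 0.0039), lost without KO novelty replicate 1 (adjusted p 0.067). In ifKO it was -0.08 ± 0.10. Kcnn2 region 3 was higher in the average alone (0.42 ± 0.15, adjusted p 0.028), lost without 5 of the 8 libraries, with DESeq2 and with strength-fitted offsets. With TMM scaling the HCN and inward rectifier genes had edgeR calls in the average alone, at Hcn2 region 2 (0.79 ± 0.23, adjusted p 0.0094) and Kcnj6 region 5 (0.94 ± 0.37, adjusted p 0.050). The first was lost without KO standard replicate 1, WT novelty replicate 2 or KO novelty replicate 2, and the second without 6 of the 8 libraries, with RLE scaling, with DESeq2 and with strength-fitted offsets. Both are internal regions of low level, at most 2.42 CPM in any library, and the 4 KO libraries were above the 4 WT ones at each. In the average edgeR also called Hcn2 region 1 higher with strength-fitted offsets (0.11, adjusted p 0.026). With RLE scaling it called Kcnj3 region 1 lower (-0.11, adjusted p 0.045).

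Kcnk2 encodes TREK-1, a two-pore channel that carries a resting potassium current, and the fall at its distal start was called under standard conditions. Region 2 (chr1:189400948-189402748), 58.6 kb upstream of the printed proximal start, had 6.74 and 6.84 CPM in WT and 3.90 and 3.19 in KO under standard conditions. After novelty it had 4.64 and 2.47 CPM in WT and 2.92 and 4.23 in KO, and in the other cohort 1.91 and 2.68 CPM in ifWT and 2.11 and 4.04 in ifKO. The 2 WT libraries under standard conditions were above the 10 others, and in the other comparisons the groups overlapped. The log2 change was -0.94 ± 0.25 (adjusted p 0.0091) under standard conditions, 0.01 ± 0.26 after novelty and 0.40 ± 0.30 in ifKO. The standard call was lost without WT replicate 1, WT replicate 2 or KO replicate 2. Averaged over both conditions the change was -0.46 ± 0.18 (adjusted p 0.046), lost without 5 of the 8 libraries, with DESeq2, with limma-voom and with library totals. The interaction of genotype and novelty was 0.95 ± 0.36 (unadjusted p 0.012, adjusted p 1.00), and the KO effect minus the ifKO effect was -1.34 ± 0.39 (unadjusted p 0.0016, adjusted p 0.12), so neither difference passed. The main region of Kcnk2, which holds 3 annotated starts, had a log2 change of -0.01 ± 0.04 in KO averaged over both conditions.

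**Figure D4:**
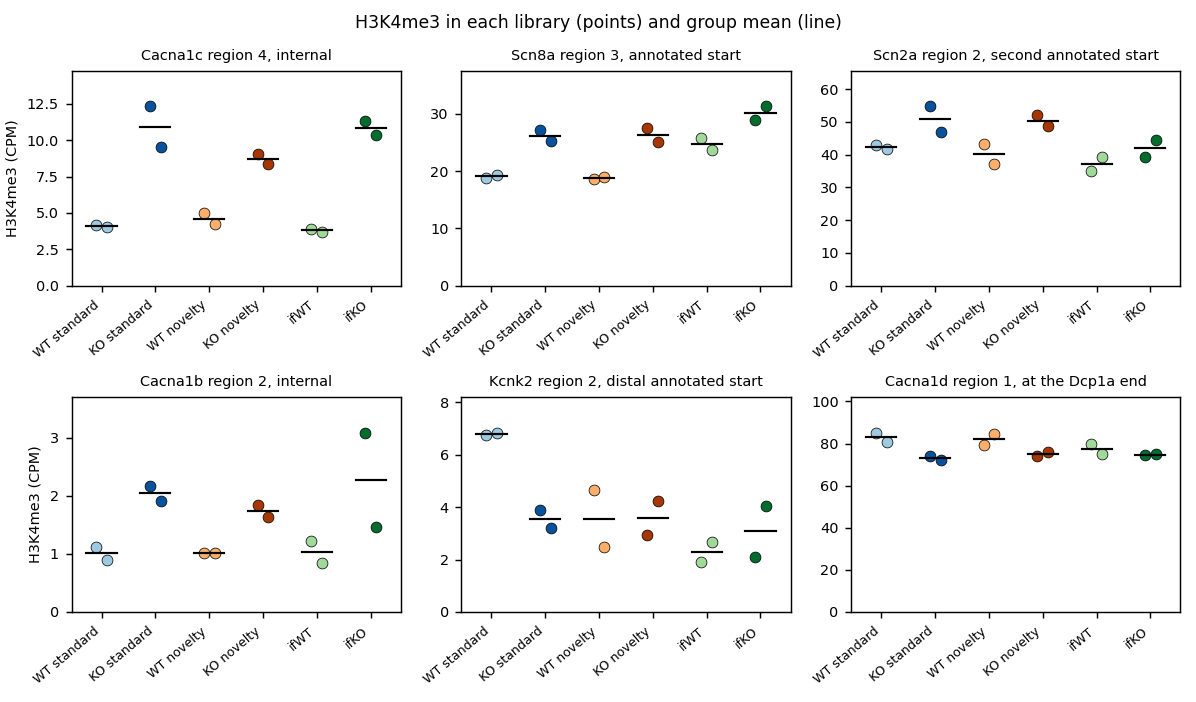
H3K4me3 (CPM, axes from 0) in each library (points) with the mean of each group (line), at 6 regions of channel genes. At Cacna1c region 4 every KO and ifKO library (8.34 to 12.3 CPM) lies above every control library (3.71 to 4.98 CPM), whereas at Kcnk2 region 2 only the WT libraries under standard conditions stand apart.

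The conditions of the KO cohort were compared region by region. Of the 14 regions past the threshold in either, 4 were past it in both, all in the same direction: Cacna1c regions 2 and 4, Scn2a region 2 and Scn8a region 3. The 4 KO libraries and the 4 WT libraries did not overlap at 20 of 126 channel regions, and they did not overlap at 30.9% of all regions. The interaction of genotype and novelty had 0 channel regions past the threshold (edgeR, 4 at an unadjusted p under 0.05), and 0.0% of all regions passed. DESeq2 and limma-voom also gave 0.

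**Figure D5:**
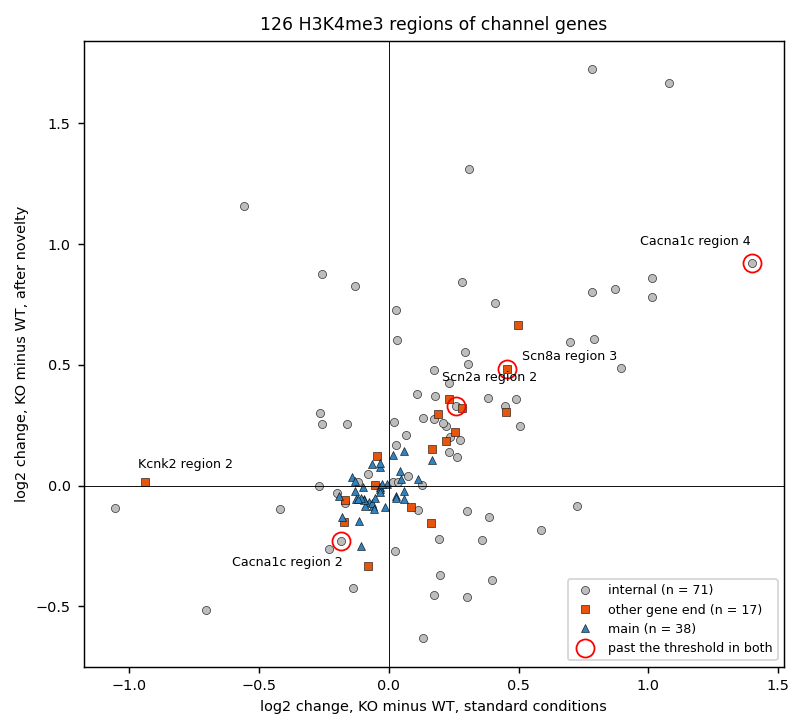
Log2 change (KO minus WT) at the 126 channel regions under standard conditions (horizontal) against that after novelty (vertical), from separate libraries, with main, other gene-end and internal regions marked and the 4 regions past the threshold in both conditions circled. The 38 main regions cluster near 0, with changes of at most 0.19 under standard conditions and 0.25 after novelty in either direction.

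Novelty itself was compared with standard conditions over both genotypes. It gave 0 channel regions past the threshold by edgeR (10 at an unadjusted p under 0.05, and 0 by DESeq2 and limma-voom), where 0.0473% of all regions passed. At the 38 main regions the log2 changes reached 0.14 in size, and the 95% intervals lay between -0.23 and 0.22. The lowest main value was that of Scn3a, an alpha subunit prominent before birth, at -0.14 (unadjusted p 0.0081, adjusted p 0.60). The KO effect under standard conditions and the ifKO effect differed at 0 channel regions (edgeR, 10 at an unadjusted p under 0.05), where 0.701% of all regions passed. DESeq2 and limma-voom gave 0 as well.

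The internal regions took a larger share of the channel genes' counts in the mutants, by small amounts. The share was 10.8% to 11.5% in the 4 WT libraries and 11.8% to 12.4% in the 4 KO libraries, and 10.7% to 11.3% in ifWT and 11.8% in both ifKO libraries. Mutant and control libraries did not overlap in either cohort. Over all genes with TMM scaling, regions inside genes had a median log2 change of 0.14 in KO averaged over both conditions. The main regions of all protein-coding genes had -0.08. In ifKO these medians were 0.06 and -0.06. The share itself was not computed over all genes, so it cannot be called particular to the channel genes. Summed marker levels of several cell types also stood apart between mutant and control libraries. Astrocyte markers summed to 206 to 214 CPM in KO and 194 to 199 in WT under standard conditions, with 2 of 6 markers past the threshold, both higher. Interneuron markers summed to 62.1 to 62.8 CPM in KO and 68.1 to 76.1 in WT, with 0 of 7 higher and 1 lower. The lower one was Gad1 (log2 change -0.38, edgeR adjusted p 0.0076), which alone had a mean of 41.9 CPM in WT. The median over the interneuron list was -0.09, and after novelty it was 0.01. Oligodendrocyte markers summed to 204 to 219.9 CPM in KO and 222 to 232 in WT, with 1 of 8 higher and 1 lower, and choroid plexus markers to 46.8 to 47.5 and 41.9 to 42.7, with 1 of 3 higher. After novelty the sums of these 4 lists again did not overlap, in the same direction. The oligodendrocyte sums were close, at 214.6 to 215.0 CPM in KO and 215.5 to 217.3 in WT. The only marker called there, Gpr17, was higher (log2 change 0.84, edgeR adjusted p 2.3e-05). Vascular and excitatory neuron sums of KO and WT overlapped in both conditions. In the average 1 of 6 vascular markers was higher and 4 lower, and 1 of 8 excitatory neuron markers was higher and 2 lower. In ifKO the astrocyte sums overlapped, at 154 to 163 CPM against 155 to 164 in ifWT, with 0 of 6 past the threshold, as did the interneuron sums. Excitatory neuron markers summed to 836 to 891 CPM in ifKO and 687 to 747 in ifWT, with 1 of 8 higher. That marker was Camk2a (log2 change 1.02, edgeR adjusted p 3.2e-13), and the median over the list was 0.03. Choroid plexus markers summed to 53.0 CPM in both ifKO libraries and 39.7 to 44.7 in ifWT, with 2 of 3 higher, and vascular markers to 155 to 165 and 143 to 148, with 1 of 6 higher. The called vascular marker was Sox18 (log2 change 0.57), and the median over the vascular list was -0.03. Oligodendrocyte markers were at 193 to 204 CPM in ifKO and 215 to 227 in ifWT, and microglia markers at 53.1 to 57.6 and 59.8 to 62.6, with 0 past the threshold in either list. The part of cell composition in the channel results was not tested, and in whole hippocampus a change in the number of cells that carry the mark and a change of the mark per cell cannot be told apart.

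A further list of 72 channel genes, of which 71 had 194 regions, gave 23 higher and 6 lower regions in KO under standard conditions (14.9%), where 13.4% of all regions passed. After novelty 33 were higher and 8 lower (21.1%, against 17.0%), in the average 47 and 15 (32.0%, against 32.1%) and in ifKO 12 and 2 (7.22%, against 5.38%). At their 71 main regions 4 were higher and 5 lower under standard conditions (5.63% and 7.04%, against 5.51% and 8.15%). After novelty these were 8 and 6 (11.3% and 8.45%, against 5.84% and 13.3%). The average gave 12 and 12 (16.9% and 16.9%, against 9.56% and 30.4%), and ifKO 4 and 1 (5.63% and 1.41%, against 2.56% and 2.22%). Kcns1, a silent subunit that modifies other potassium channels, rose at its main region by 0.93 ± 0.12 under standard conditions, 0.78 ± 0.12 after novelty and 0.73 ± 0.11 in ifKO (adjusted p 5.8e-07, 9.5e-06 and 1.9e-05). Kcnk4, a mechanosensitive two-pore channel gene related to Kcnk2, rose by 0.60 ± 0.09, 0.68 ± 0.09 and 0.57 ± 0.09 (adjusted p 2.0e-05, 1.1e-06 and 6.8e-05). Both held in every alternative run.

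For Kdm5C and H3K4me1 there was a single WT and a single KO library, with a signal over 2321 regions, so no test was possible. Those regions overlapped 6.43% of all H3K4me3 regions and 1 of the 126 channel regions, Cacna1h region 2. There (chr17:25434406-25434578) the Kdm5C signal was 663 in WT and 50 in KO, beside medians of 1346 and 281 over that file. The H3K4me1 signal was 177 in WT and 189 in KO. The sources used here do not say how those regions were chosen, so the other channel regions were not analysed here for Kdm5C.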

How the data were processed

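Per the file headers, the authors deposited raw read counts for H3K4me3 over 36005 shared regions, of which 9 repeats were removed. For H3K4me1 and Kdm5C the deposited values were treated as signal, since they look like covered bases although their headers read raw counts. The submitters' processing notes name mm10, MACS2 2.1.0 (a peak caller), Bowtie2 2.2.9 (an aligner), DESeq2 1.10.0, R 3.3 and SAMtools 1.3.1, without their roles here. The sources used here do not say how the authors chose the regions, or whether coordinates count from 0 or 1. Input libraries were not used.

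A single edgeR 4.0.16 quasi-likelihood fit under R 4.3.3 covered the 12 H3K4me3 libraries, with a mean for each group and TMM factors, after filterByExpr removed 41 regions. P-values were adjusted by Benjamini-Hochberg over the 35955 regions tested, with a threshold of 0.05, and standard errors derive from the F statistic. "Rose", "fell", "higher" and "lower" with an adjusted p refer to that threshold. The fit was tested on simulated counts. Alternatives were DESeq2 1.42.0, limma-voom (limma 3.58.1), RLE scaling, library totals, offsets fitted to region strength, no filter, a replicate block, only the compared groups, each library left out, and windows of 1 or 5 kb. A gene table of GRCm38 gave the gene ends, and all 38 symbols matched.

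Per comparison, up to 15 channel regions that passed and had a mean log2 CPM of at least 1 could be named, as could regions of lower mean with their counts and any main region with its level. Of the further channel genes up to 4 main regions per comparison could be named. The genes and lists were chosen with earlier results of these data known. With 2 libraries a group, no permutation test of a single region could pass. Intervals cover 95%.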

Additional observations from a re-analysis of the deposited data

How the results depend on the processing

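The channel counts in the 7 comparisons stayed within 1.5 times their reported value in most alternatives, and no called region reversed direction in any. After novelty, the compared groups alone gave 17 channel regions in place of 11. For KO averaged over both conditions DESeq2 gave 16 in place of 26. In ifKO, DESeq2, limma-voom and the compared groups alone each gave 1 in place of 3. Leaving out 1 library at a time gave 2 to 5 for KO under standard conditions (2 without WT standard replicate 1 or 2), 2 to 10 after novelty (2 without WT replicate 2, 4 without KO replicate 1), 13 to 26 for the average (13 without WT novelty replicate 2, 16 without WT standard replicate 2), 1 to 8 in ifKO (1 without ifKO replicate 1, 8 without ifKO replicate 2), 0 to 0 for novelty and for the interaction, and 0 to 1 for the KO effect minus the ifKO effect (1 without ifKO replicate 1). Fewer libraries enter those fits, and the cause was not tested further. The correlations of same-numbered deviations were -0.04 to 0.06 within a cohort and -0.10 to 0.06 between cohorts. Counting noise enters these values, so they cannot settle whether same-numbered libraries were prepared together. With a replicate block the counts were 6, 10, 27 and 4 in place of 7, 11, 26 and 3. The block took away the calls at Cacna1c region 2 under standard conditions and at Cacna1c region 9 after novelty, and no other called channel region. No scaling moved the median of all regions by more than 0.05 on the log2 scale, but at the main channel regions the median turned positive with offsets fitted to region strength, at 0.02 under standard conditions, 0.04 after novelty, 0.03 in their average and 0.02 in ifKO. The main regions were then 2 higher and 0 lower, 2 and 1, 6 and 1, and 1 and 0, and in the average the other regions gave 9 higher in place of 20. Depth limits the internal regions, whose median count was 33.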
